A study of Mus musculus with 12 samples.

Results

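RNA was compared between mouse rods that had received the expression vector pcDNA4c carrying mouse Csnk2a1 (labelled pcDNA4c mCsnk2a1) and rods that had received pcDNA4c as control (pcDNA4c Control). The members are 3 libraries of each kind, 6 of the 12 libraries of the series, taken by their labels. The other 6 come from rods that carried an shRNA, a short hairpin RNA, directed at Csnk2a1 or its control (shRNA Control). Both shRNA groups also entered the main fit of all 12 libraries, which set the gene filter, scaling and shared spread behind its p-values. Values of shRNA Control are otherwise quoted only beside the others. In all groups the construct was delivered by electroporation, the electroporated areas of the retina were dissociated with papain on postnatal day 8, and intact GFP-positive rods were picked one by one with a micromanipulator. Each library held 50 to 100 cells and was prepared from total RNA with a SMARTer Stranded Pico input kit, in which PCR copies are not marked by molecular identifiers. The sources used here do not name the mouse strain, the day of electroporation, the promoter of the GFP reporter or whether the 3 RNA samples of a group came from separate animals, so p-values measure only the spread between these samples.

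Csnk2a1 encodes the alpha catalytic subunit of protein kinase CK2, a serine/threonine kinase present in nearly all cells that works as a tetramer of catalytic alpha or alpha' subunits on a dimer of the regulatory beta subunit (Csnk2b). Rods are the photoreceptors of dim light. In the second postnatal week in mice they build their outer segments and raise the genes of phototransduction under the transcription factors NRL, CRX and NR2E3. The developing retina also holds microglia, its resident macrophages, which take up dying cells and debris.

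Summed estimated counts were 2296158, 3551483 and 3287217 in the Csnk2a1 vector libraries and 2017899, 1986353 and 1692825 in the controls. After random thinning to 1692825 counts, 16706 ± 1565 genes had a count with the Csnk2a1 vector and 23677 ± 1482 in pcDNA4c Control (SD, n = 3, two-sided exact permutation p = 0.1, the smallest that 3 against 3 can give). The rank correlation over 20267 genes was 0.678 to 0.689 between control libraries and 0.522 to 0.590 between vector libraries. The library labelled pcDNA4c mCsnk2a1 1 correlated at 0.522 and 0.543 with the other libraries of its own group and at 0.557 to 0.580 with the controls. This was not particular to it. The libraries pcDNA4c mCsnk2a1 2 and 3 correlated at 0.590 with each other. With the controls, pcDNA4c mCsnk2a1 2 correlated at 0.590 to 0.591 and pcDNA4c mCsnk2a1 3 at 0.614 to 0.625. The fit shared its estimate of the spread over all 12 libraries, with a common biological coefficient of variation of 1.26 in edgeR. Estimated separately in each group, outside the fit, it was 1.57 for the vector group and 0.898 for the controls. The rod genes Nrl, Gnat1 and Sag had counts in each of the 6 libraries, while 1 of 20 rod phototransduction genes measured was at 0 in all vector libraries. Such counts cannot show that rods alone were picked, as genes of macrophages and bipolar cells had counts too.

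Csnk2a1 RNA itself (chromosome 2, 152226839 to 152281852, GRCm38) was not separated between the groups. Its level was 49.9, 145 and 122 TMM-scaled CPM (a read-depth-normalised count whose library size was adjusted with trimmed mean scaling) in the vector libraries and 86.6, 25.0 and 28.3 in the controls. The library labelled pcDNA4c mCsnk2a1 1 lay below pcDNA4c Control 1, so the groups overlapped. On the log2 scale Csnk2a1 differed by 1.18 (SE 0.88; adjusted p = 0.801 in edgeR; two-sided exact permutation p = 0.2), and it ranged from 0.86 to 1.99 over 16 alternative settings without passing. Reads of the gene and of the plasmid's copy were not separated in these counts. Among single transcripts, the full-length coding form Csnk2a1-201 (4206 nucleotides) had 2.52, 6.85 and 5.67 TPM (a length-normalised transcript level) in the vector libraries and 2.52, 1.75 and 2.69 in the controls (exact permutation p = 0.2, n = 3 per group). The library labelled pcDNA4c mCsnk2a1 1 thus lay within the range of the controls on both scales. The retained-intron form Csnk2a1-205 was listed at 0 in the 3 vector libraries and at 0.944, 1.20 and 0.861 TPM in the controls (exact permutation p = 0.1). The other retained-intron form, Csnk2a1-204, leaned the other way, at 2.41, 1.17e-04 and 10.7 TPM against 0, 0 and 0.992 (exact permutation p = 0.2). Of the short coding forms, Csnk2a1-202 had 5.30, 20.7 and 0 TPM against 0 in the controls. Csnk2a1-203 had 0, 0.836 and 7.67 TPM against 9.69, 0.882 and 0. Csnk2b differed by 0.52 (SE 0.70) and the second catalytic subunit Csnk2a2 by 0.15 (SE 1.24), and neither passed.

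A total of 20 of 20267 genes tested passed (edgeR quasi-likelihood test, Benjamini-Hochberg adjusted p under 0.05), which is 0.0987% of them. Of these, 13 were higher (0.0641%) and 7 lower (0.0345%) with the Csnk2a1 vector. The lower genes were led by secreted and lysosomal genes of phagocytes, and the higher ones by mitochondrially encoded transcripts and the signal recognition particle RNA. All 20 had groups that did not overlap, as did 15.5% of all genes tested, 3.73% with the vector libraries higher and 11.8% with them lower. Over all genes tested the log2 differences had a median of -0.16, and 1769 genes had an unadjusted p under 0.05. Without the library labelled pcDNA4c mCsnk2a1 1, 20 genes passed higher and 15 lower, among them the same 20. With 1 control library left out the number higher was 6 (without pcDNA4c Control 1), 9 (without 2) and 7 (without 3), and without pcDNA4c mCsnk2a1 3 the number lower was 11. In the fit of only the 6 libraries, 0 genes passed higher and 6 lower with edgeR (422 and 589 at an unadjusted p under 0.05). On all 12 libraries DESeq2 gave 53 and 187, and limma voom 9 and 28.

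**Figure D1:**
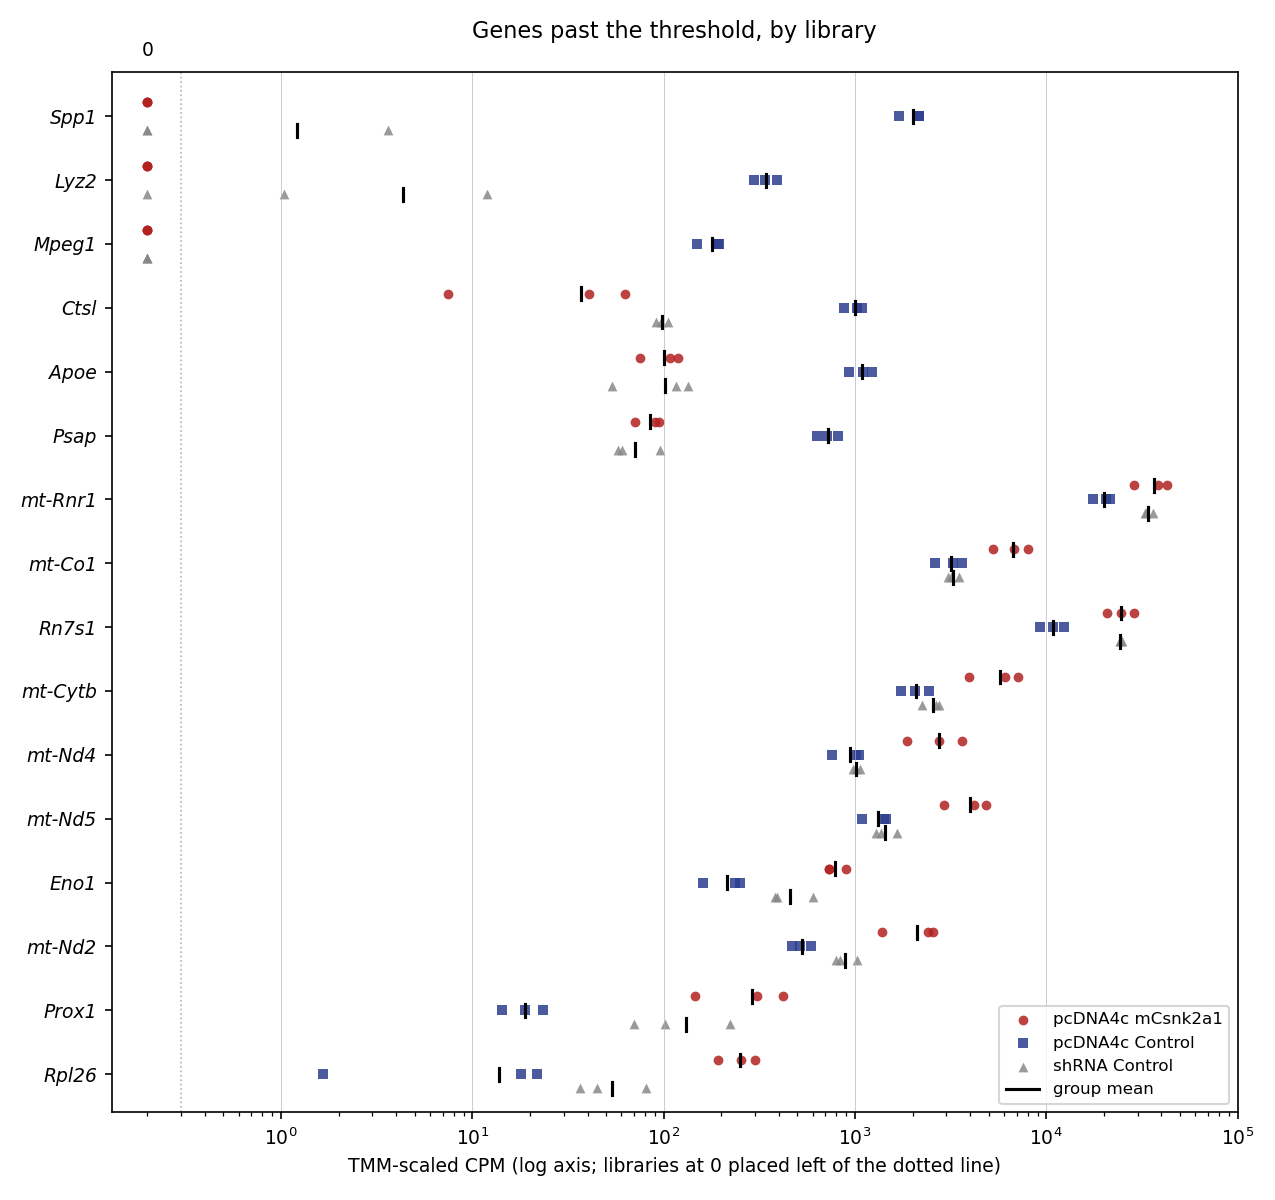
TMM-scaled CPM (log axis) of 16 genes past the threshold with their own values, in the Csnk2a1 vector, pcDNA4c Control and shRNA Control libraries (points, n = 3 each; black lines are group means, and libraries at 0 stand left of the dotted line). In each gene the 3 Csnk2a1 vector libraries lie on the same side of the 3 pcDNA4c Control libraries, and for Spp1, Lyz2 and Mpeg1 they are all at 0.

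Of the 7 genes that fell, Mpeg1 and Lyz2 are markers of macrophages and microglia, and Spp1, Ctsl and Apoe belong to a list of phagocyte activation. Spp1 encodes osteopontin, a secreted glycoprotein of activated phagocytes (chromosome 5, 104435118 to 104441050). It was at 0 in the 3 vector libraries and at 2172, 2168 and 1705 CPM in the controls, at least 5712-fold lower against a floor of 3 counts over the group (edgeR adjusted p = 0.00198). By TPM, Spp1 was the second most abundant nuclear protein-coding entry in the controls, at 815 ± 80.4 (SD, n = 3), above the rod gene Pdc at 683 ± 78.8. Lyz2, the lysozyme of myeloid cells (chromosome 10, 117277331 to 117282321), was at 0 in the vector libraries and at 295, 390 and 337 CPM in the controls, at least 960-fold lower (adjusted p = 0.00437). Mpeg1, the pore-forming protein of macrophages (chromosome 19, 12460779 to 12465283), was at 0 against 149, 192 and 194 CPM, at least 501-fold lower (adjusted p = 0.00418). In bulk libraries such as these, fewer cells of a type and less RNA per cell cannot be told apart.

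The other genes that fell kept some RNA in the vector libraries. Ctsl, a lysosomal cysteine protease (chromosome 13, 64359337 to 64370890), had 7.44, 63.0 and 41.0 CPM with the vector and 1089, 871 and 1028 in the controls, lower by a log2 difference of -4.74 (SE 0.64; adjusted p = 0.00250 in edgeR). Apoe, the lipid carrier made by glia and macrophages (chromosome 7, 19696109 to 19699188), had 75.2, 108 and 119 CPM against 1231, 1096 and 926, a difference of -3.43 (SE 0.47, adjusted p = 0.00250). Psap, the precursor of the saposins that help break down sphingolipids in lysosomes (chromosome 10, 60277627 to 60302597), had 70.9, 89.6 and 94.0 CPM against 715, 810 and 635, a difference of -3.08 (SE 0.44, adjusted p = 0.00350). In each of the 3 genes the highest vector library stood far below the lowest control. Spp1, Apoe, Psap, Mpeg1 and Lyz2 passed in 16 of 16 alternative settings, and Ctsl in 15, the exception being the fit of the 6 libraries alone (adjusted p = 0.141). The seventh gene, the noncoding Gm26917, falls outside the rule for named genes and is named after its values were seen: 662, 1035 and 1161 CPM against 8519, 3920 and 3120 (difference -2.44, SE 0.36, adjusted p = 0.00376).

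The 250 bases upstream of the start of 4 of these genes, with Spp1 and Apoe holding the letters GAGGAA and the macrophage genes Mpeg1 and Lyz2 holding neither GAGGAA nor its reverse complement TTCCTC, are shown because the genes fell together (RefSeq, GRCm38.p6; 5′ to 3′ on the gene's strand; GAGGAA, the core that the myeloid factor PU.1 is known to bind, is in capitals).
Spp1, chr5:104434861-104435110, plus strand: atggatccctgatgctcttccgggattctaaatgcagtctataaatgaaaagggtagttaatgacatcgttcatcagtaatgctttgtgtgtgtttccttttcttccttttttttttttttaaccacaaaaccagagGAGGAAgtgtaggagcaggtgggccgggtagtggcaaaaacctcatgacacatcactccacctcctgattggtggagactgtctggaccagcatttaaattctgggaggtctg
Apoe, chr7:19699189-19699438, minus strand: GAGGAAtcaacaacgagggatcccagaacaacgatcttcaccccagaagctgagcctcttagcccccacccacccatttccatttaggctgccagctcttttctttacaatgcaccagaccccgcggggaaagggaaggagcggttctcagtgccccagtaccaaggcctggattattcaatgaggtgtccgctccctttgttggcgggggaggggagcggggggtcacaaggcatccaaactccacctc
Mpeg1, chr19:12460520-12460769, plus strand: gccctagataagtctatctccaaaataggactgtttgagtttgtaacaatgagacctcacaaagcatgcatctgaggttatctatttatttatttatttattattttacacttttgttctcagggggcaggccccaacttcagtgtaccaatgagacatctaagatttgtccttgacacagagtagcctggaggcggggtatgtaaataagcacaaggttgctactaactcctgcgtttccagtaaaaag
Lyz2, chr10:117282273-117282522, minus strand: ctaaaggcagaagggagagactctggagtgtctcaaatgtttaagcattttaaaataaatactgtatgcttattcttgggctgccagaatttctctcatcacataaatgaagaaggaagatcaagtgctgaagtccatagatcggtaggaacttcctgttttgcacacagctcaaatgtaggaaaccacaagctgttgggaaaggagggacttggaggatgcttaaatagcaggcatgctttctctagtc
Searched on both strands, GAGGAA or TTCCTC was in the windows of 3 of the 6 named genes that fell (Spp1, Apoe and Psap) and in 23.1% of 27025 promoter windows of the same length, so these letters are common in such windows. The windows were placed by RefSeq starts, which can differ from the gene bounds given above. The Ctsl window lies inside those bounds and the Lyz2 window reaches into them. A match is a description of the sequence and not of a bound site. Other sequences that PU.1 can bind were not searched, so a window without GAGGAA may still hold one.

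Genes of macrophage and microglial identity, a list of cell-type markers, lay lower as well, most of them without passing. Of 29 measured, 26 were lower and 3 higher, 2 passed (Mpeg1 and Lyz2), and 20 had vector libraries all below the controls (11.8% of all genes did). The median log2 difference was -3.18, against -0.16 over all genes, and it was -6.16 without the library labelled pcDNA4c mCsnk2a1 1. In all, 10 of the 29 were at 0 in each vector library. Among them were Ctss, the phagocyte cathepsin S (213, 222 and 128 CPM in the controls, at least 535-fold lower, edgeR adjusted p = 0.0745), the complement gene C1qa (31.0, 69.5 and 63.2 CPM, at least 153-fold lower, adjusted p = 0.329), and Tyrobp, the adaptor of myeloid receptors (25.6, 30.0 and 18.3 CPM). Ctss passed in 5 alternative settings and not in the other 11. In edgeR it passed without pcDNA4c Control 3 (adjusted p = 0.0453), with only the 6 libraries (0.0204), with the replicate number as a block (0.0120) and with no filter. It also passed with limma voom (adjusted p = 7.35e-04). Not all markers were at 0: Itgam, the integrin alpha M chain, had 40.7, 1.57 and 15.8 CPM with the vector and 154, 113 and 112 in the controls. Csf1r, the receptor for colony stimulating factor, had 8.75, 31.3 and 1.01 CPM against 39.8, 33.5 and 107. The 3 markers with higher means were Cd33 (1.38), Sall1 (0.76) and Siglech (0.36), none of which passed, and Cd33 had 487 CPM in pcDNA4c mCsnk2a1 2 alone and 41.6 to 94.9 in the other 5 libraries.

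Genes of phagocyte activation, which code for products of lipid uptake, lysosomal digestion and matrix, were also lower. Of 23 measured, 23 were lower and 3 passed (Spp1, Ctsl and Apoe), with a median of -3.43. In 17 the vector libraries were all below the controls (11.8% of all genes did so). Gpnmb, a glycoprotein of lipid-laden phagocytes, had 7.87, 0 and 18.5 CPM with the vector and 1077, 849 and 649 in the controls, a difference of -6.60 (SE 1.28, edgeR adjusted p = 0.0521). It stayed just outside the threshold and passed when pcDNA4c mCsnk2a1 2 or 3, or pcDNA4c Control 2 or 3, was left out (adjusted p 0.0176, 0.0248, 0.0266 and 0.0279). Lpl, lipoprotein lipase, had 38.1, 26.0 and 68.5 CPM against 377, 397 and 206 (-2.89, SE 0.60, adjusted p = 0.105), and the scavenger receptor Cd36 had 0 against 85.6, 52.5 and 64.8 (at least 191-fold lower, adjusted p = 0.204). Fn1, fibronectin, had 106, 76.1 and 65.5 CPM against 665, 588 and 493 (-2.82, SE 0.62, adjusted p = 0.169), and Mmp12, the macrophage metalloelastase, 73.9, 53.3 and 20.8 against 517, 493 and 375 (-3.23, SE 0.72, adjusted p = 0.190). The ferritin genes Fth1 and Ftl1 showed differences of -0.03 and -0.65 only.

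The lysosome list was split. Of 44 measured genes, 30 were lower and 14 higher, 2 passed lower (Ctsl and Psap), and the median was -1.02. On the lower side 17 did not overlap and on the higher side 2 (11.8% and 3.73% of all genes did). Ctsb, cathepsin B, had 2.62, 73.9 and 81.6 CPM against 425, 602 and 374 (-3.14, SE 0.81), and Ctsd, cathepsin D, 20.6, 0 and 76.2 against 594, 555 and 434 (-4.03, SE 1.10). Smpd1, the acid sphingomyelinase, went the other way with 153, 34.5 and 89.3 CPM against 15.3, 12.5 and 20.5 (2.52). Atp6v1a, a subunit of the proton pump that acidifies lysosomes and synaptic vesicles, had 129, 395 and 87.6 against 69.4, 74.5 and 57.1 (1.61). None of these 4 passed. Of cholesterol efflux and synthesis genes 12 of 19 were lower (median -0.28), and only Apoe passed. That median was 0.02 without pcDNA4c Control 1 and -0.50 without pcDNA4c mCsnk2a1 2.

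The control shRNA libraries, which carry neither Csnk2a1 construct, stood near the Csnk2a1 vector libraries in these lists. The macrophage and microglia list summed to 197 to 694 CPM with the Csnk2a1 vector, 1614 to 1864 in pcDNA4c Control and 245 to 450 in shRNA Control. For phagocyte activation the sums were 797 to 1002, 6384 to 8682 and 884 to 1031 CPM. In shRNA Control, Spp1 was at 3.63, 0 and 0 CPM, Apoe at 116, 135 and 53.9, Psap at 57.6, 95.3 and 60.7 and Mpeg1 at 0 in the 3 libraries. The differences of both groups are taken from the same pcDNA4c Control libraries. How much macrophage RNA in those controls contributed to the other differences of this comparison was not tested.

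**Figure D2:**
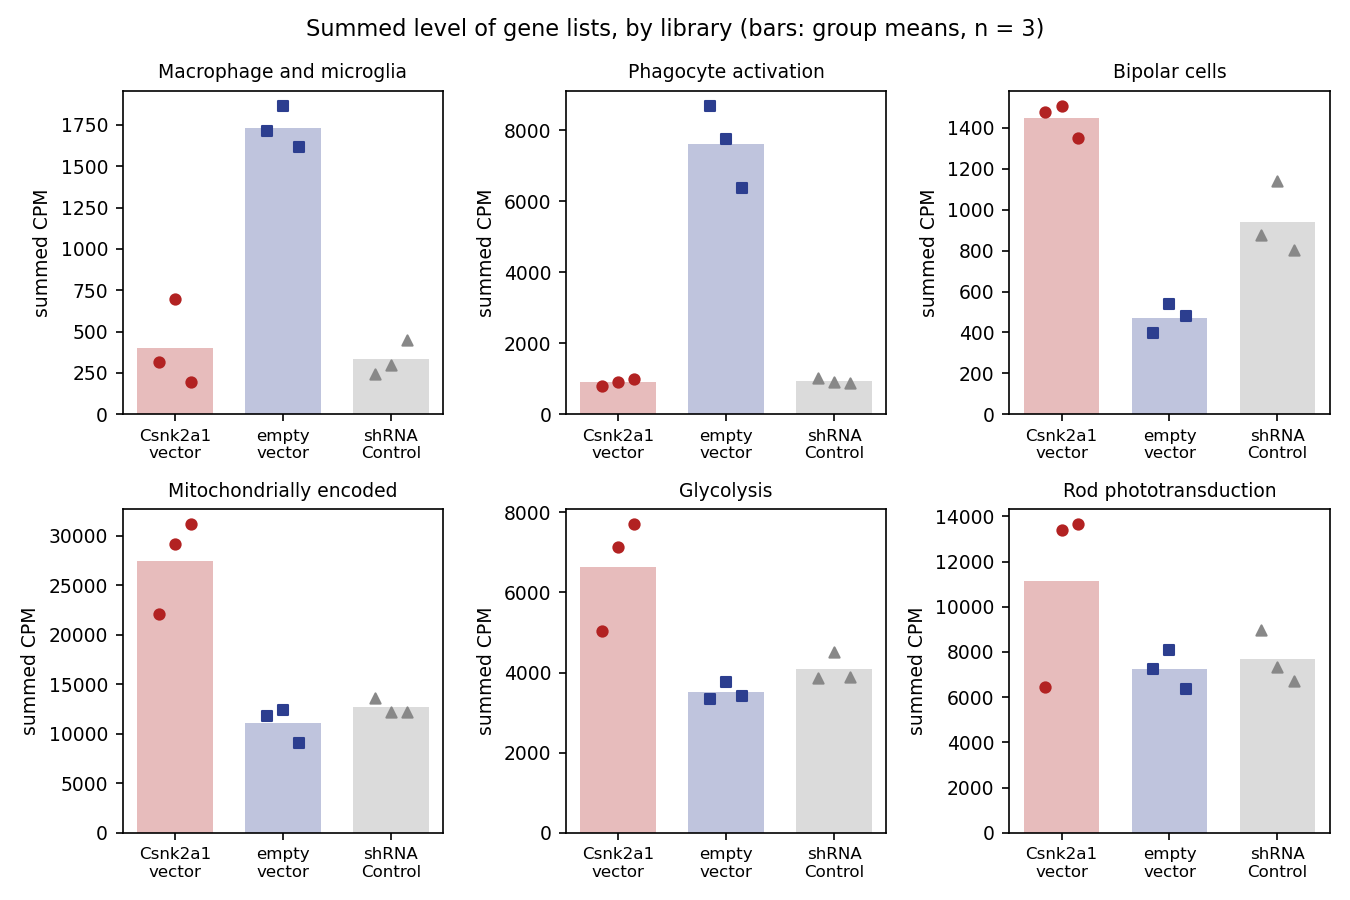
Summed TMM-scaled CPM of 6 gene lists in each library (points) of the Csnk2a1 vector, empty vector and shRNA Control groups (n = 3 each), with bars as group means from 0. The macrophage and phagocyte sums are high only in the empty vector libraries, the mitochondrially encoded sum only in the Csnk2a1 vector libraries, and in rod phototransduction 1 vector library lies at 6436 CPM, within the 6381 to 8102 of the controls.

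Mitochondrially encoded transcripts were higher with the Csnk2a1 vector. These are the respiratory chain subunits and ribosomal RNAs read from the mitochondrial genome. Of 12 protein-coding genes measured, 12 were higher, 5 passed and 10 did not overlap (3.73% of all genes on the higher side), with a median log2 difference of 1.26. Their sum was 22099 to 31152 CPM with the vector, 9054 to 12433 in pcDNA4c Control and 12215 to 13638 in shRNA Control. As a share of all counts they made up 2.55% ± 0.318 and 1.14% ± 0.151 (SD, n = 3, exact permutation p = 0.1).

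By complex, mt-Nd2 of complex I had 1392, 2410 and 2543 CPM against 589, 519 and 471, the largest difference of the 5 that passed (2.01, SE 0.29, edgeR adjusted p = 0.00376). The complex I gene mt-Nd5 had 2935, 4167 and 4851 against 1413, 1455 and 1087 (1.60, SE 0.27, adjusted p = 0.0128), and mt-Nd4 had 1868, 2760 and 3609 against 1017, 1047 and 757 (1.55, SE 0.28, adjusted p = 0.0290). For complex III, mt-Cytb had 3929, 6088 and 7125 against 2061, 2451 and 1739 (1.46, SE 0.23, adjusted p = 0.00905). For complex IV, mt-Co1 had 5247, 6781 and 8011 against 3251, 3614 and 2607 (1.08, SE 0.20, adjusted p = 0.0329). The library labelled pcDNA4c mCsnk2a1 1 was the lowest of its group in these 5 genes and still above the controls. Calls were lost when single libraries were left out: mt-Nd5 without pcDNA4c Control 1 or 3 (adjusted p 0.0532 and 0.0661), mt-Co1 without pcDNA4c mCsnk2a1 2 or 3 or pcDNA4c Control 1 or 3 (0.0716, 0.0803, 0.141 and 0.163), and mt-Nd4 without any 1 library but the one labelled pcDNA4c mCsnk2a1 1 (0.0663 to 0.176). Of the nuclear-encoded subunits of the same complexes 46 of 74 were higher, 14 did not overlap on that side (3.73% of all genes did) and 0 passed, with a median of 0.30.

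Other mitochondrial entries differed from one another. The small ribosomal RNA mt-Rnr1 had 28576, 38510 and 42617 CPM against 20517, 21582 and 17626 (0.88, SE 0.12, edgeR adjusted p = 0.00350). That call was lost with DESeq2 (0.95, adjusted p = 0.0733), limma voom (0.50, adjusted p = 0.752) and in the fit of the 6 libraries (adjusted p = 0.404). The large one, mt-Rnr2, overlapped at 45107, 60645 and 67175 against 48590, 51642 and 41780 (0.28, SE 0.13), and did not pass. It passed without the library labelled pcDNA4c mCsnk2a1 1 (0.48, adjusted p = 0.0209). In shRNA Control mt-Rnr1 was at 32988, 33306 and 36211 CPM, above pcDNA4c Control, while mt-Rnr2 was at 35986, 33624 and 34526, below it. The levels of 2 members were erratic: mt-Co2 stood at 933, 1.88 and 4.03 CPM against 437, 4.50 and 2.77, and mt-Atp6 at 245 CPM in pcDNA4c mCsnk2a1 3 and 914 to 3039 in the other 5. Gm28437, a chromosome 1 pseudogene of 783 nucleotides that also passed (1164, 1462 and 1456 CPM against 468, 519 and 405; 1.55, SE 0.29, adjusted p = 0.0375), is outside the rule for named genes. All of its 35-base words (100%) occur in mt-Co3, so its reads and those of mt-Co3 cannot be told apart. Its call was lost without any 1 library but the one labelled pcDNA4c mCsnk2a1 1 (adjusted p 0.0803 to 0.285).

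The smallest p-value of the comparison belonged to the 7SL RNA, the scaffold of the signal recognition particle, which docks ribosomes making secreted and membrane proteins at the endoplasmic reticulum. Its copies Rn7s1 and Rn7s2 are identical over 300 nucleotides (GENCODE M21), their values are the same in each library, and the pair is 1 measurement. Each copy had 20768, 28582 and 24473 CPM in the vector libraries and 10804, 12308 and 9290 in the controls, a log2 difference of 1.19 (SE 0.13; adjusted p = 2.14e-04 in edgeR). The call was lost with limma voom (1.39, adjusted p = 0.970) and in the edgeR fit of the 6 libraries (1.23, adjusted p = 0.226). Both copies together took 4.57% ± 0.514 and 2.21% ± 0.251 of all counts (SD, n = 3, exact permutation p = 0.1). In shRNA Control each copy stood at 24136, 24785 and 24256 CPM, within the range of the Csnk2a1 vector libraries. Other RNAs made by RNA polymerase III had smaller or opposite differences, none of which passed. The 7SK RNA Rn7sk had 14882, 19880 and 17310 CPM against 18510, 19649 and 15016 (-0.03), and Rpph1, the RNA of ribonuclease P, differed by 0.01. Rmrp, the RNA of the related ribonuclease MRP, had 542, 707 and 640 against 1060, 1107 and 970 (-0.73, SE 0.29) and did not pass.

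Prox1, a homeobox gene used in horizontal cells, bipolar cells and some amacrine cells (chromosome 1, 190118035 to 190170714), rose. It had 307, 146 and 420 CPM in the vector libraries and 14.3, 23.5 and 18.8 in the controls (3.94, SE 0.62, edgeR adjusted p = 0.00783). The vector libraries lay well above the controls, and shRNA Control lay between the group means, at 102, 221 and 70.3 CPM. The call was lost without pcDNA4c Control 1 (adjusted p = 0.0789), in the fit of the 6 libraries (0.1299) and with limma voom (0.230).

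The markers of bipolar cells, the interneurons that receive rod input, lay mostly above the controls. Of 20 measured, 18 were higher and 2 lower, and 1 passed. On the higher side 6 did not overlap and on the lower side 1 (3.73% and 11.8% of all genes did). The median log2 difference was 1.89, or 1.54 with genes at 0 in a group set to their bound. Their sum was 1352 to 1508 CPM with the vector, 399 to 539 in pcDNA4c Control and 804 to 1138 in shRNA Control. Isl1, a factor of ON bipolar cells, had 173, 87.4 and 75.2 CPM against 14.8, 18.5 and 20.5 (2.64, SE 0.72, edgeR adjusted p = 0.378). Gpr179, which anchors the signalling complex at bipolar dendrites, had 125, 171 and 115 against 15.3, 58.5 and 10.5 (2.28, SE 1.11). Grm6, the glutamate receptor that defines ON bipolar cells, had 12.2, 59.5 and 35.6 against 25.6, 2.00 and 24.4 and overlapped, as did Trpm1, its channel, at 33.2, 259 and 14.8 against 69.9, 17.0 and 26.0. Neurod4, a proneural factor of bipolar and amacrine cells that was not a member of the list, had 555, 402 and 413 CPM against 115, 150 and 107 (1.88, SE 0.44, adjusted p = 0.206). Whether the Prox1 level came with bipolar cell RNA in the picked cells was not tested.

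Markers of other inner retinal cells were split between higher and lower. Of 15 amacrine and horizontal cell genes 9 were higher, with a median of 0.44, and Prox1 alone passed. The median was -0.0022 without pcDNA4c mCsnk2a1 2 and 0.74 and 0.67 without pcDNA4c Control 2 and 3. Over all alternatives it ran from -0.996 to 0.74. Chat, the enzyme of cholinergic amacrine cells, owed its level to 1 library, with 451 CPM in pcDNA4c mCsnk2a1 3, 0 in pcDNA4c mCsnk2a1 2 and 1.48 to 9.97 in the controls. Of 15 Müller glia genes 9 were higher, with a median of 0.30, and the 1 that passed was Apoe, which fell. Without pcDNA4c mCsnk2a1 3 that median was 0.03. Glul, the glutamine synthetase of these cells, had 139, 36.7 and 109 CPM against 24.1, 43.0 and 35.5 (1.47, edgeR adjusted p = 0.569), and Slc1a3, their glutamate transporter, differed by 0.25. Of 9 retinal ganglion cell genes 5 were lower (median -1.19) and of 9 vascular and blood cell genes 7 were lower (median -1.36), with 0 passing in either list. The ganglion cell median was 1.08 without pcDNA4c Control 3, -0.53 and -0.70 without pcDNA4c Control 1 and 2, and -0.78 without pcDNA4c mCsnk2a1 3, and the vascular one ranged from -1.85 to 0.95 over the alternatives.

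**Figure D3:**
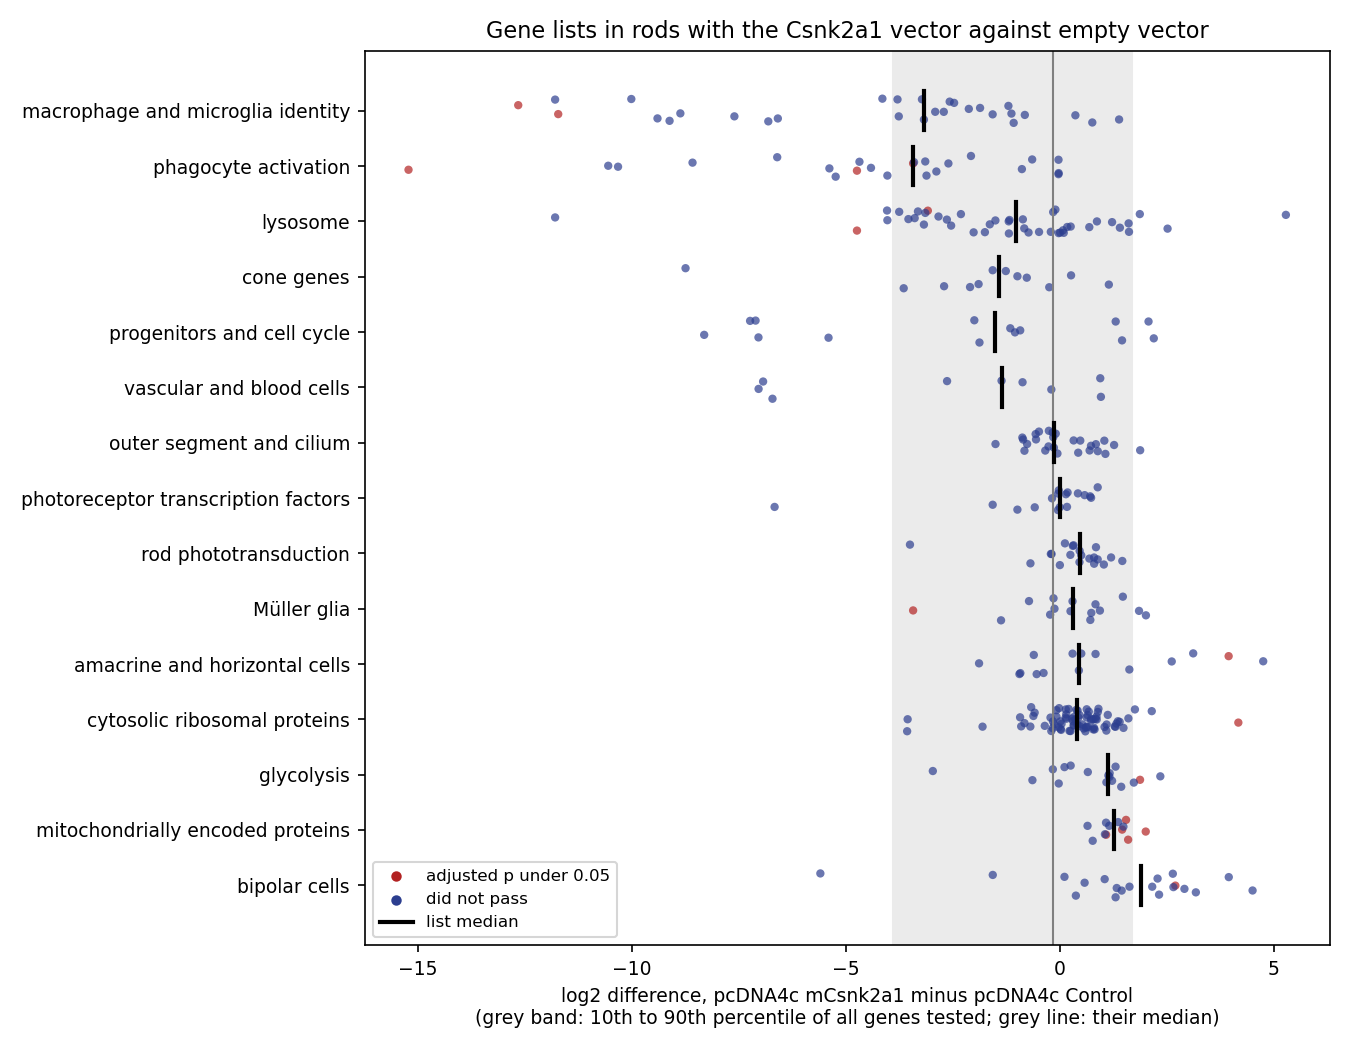
Log2 difference of each measured gene (points) in 15 gene lists, pcDNA4c mCsnk2a1 minus pcDNA4c Control, with list medians as black lines, the median of all genes as a grey line and their 10th to 90th percentile as a grey band. Red points passed the threshold; list medians run from -3.43 for phagocyte activation to 1.89 for bipolar cells, and the far left points are mostly genes at 0 in the vector libraries, whose fitted size depends on the prior count.

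Glycolytic enzymes lay above the controls as well. Eno1, enolase (chromosome 4, 150236721 to 150248879), had 729, 898 and 736 CPM with the vector and 250, 160 and 235 in the controls (1.87, SE 0.35, edgeR adjusted p = 0.0382), and 382, 392 and 602 in shRNA Control. Its close copy Eno1b had means of 398 and 112 CPM (1.83, SE 0.56), and reads shared by the copies may have been split between them. Of 17 glycolysis genes 13 were higher and 9 did not overlap on that side (3.73% of all genes did), 1 passed, and the median was 1.13. Gpi1, glucose-6-phosphate isomerase, had 324, 603 and 345 CPM against 56.1, 134 and 59.3 (2.35, SE 0.50, adjusted p = 0.136), Pgk1 245, 300 and 335 against 88.1, 139 and 98.6 (1.43, SE 0.49) and Gapdh 496, 819 and 898 against 345, 361 and 302 (1.13, SE 0.34). Not each step took part: the hexokinase Hk1 differed by 0.11, and Ldhb, a lactate dehydrogenase subunit, had 0, 8.77 and 5.04 CPM against 56.1, 35.5 and 18.3. The Eno1 call was lost without any 1 library but the one labelled pcDNA4c mCsnk2a1 1 (adjusted p 0.0535 to 0.299).

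Of cytosolic ribosomal protein genes, 58 of 78 were higher (45.1% of all genes tested were), with a median of 0.41, and 1 passed. Their sum was 7645 to 9938 CPM with the vector, 5754 to 7021 in pcDNA4c Control and 9320 to 10250 in shRNA Control. The median of shRNA Control against pcDNA4c Control was 0.59. Rpl26 had 192, 301 and 255 CPM with the vector and 21.6, 18.0 and 1.66 in the controls (4.17, SE 0.71, edgeR adjusted p = 0.0158), and 80.9, 36.3 and 44.8 in shRNA Control. The Rpl26 call was lost with limma voom (adjusted p = 0.102) and in the fit of the 6 libraries (0.300). Rpl12 went the other way without passing, at 9.19, 5.33 and 6.04 against 117, 75.0 and 51.5 (-3.56, SE 1.02). Ribosomal protein genes have many processed pseudogenes, so levels of single members depend on how shared reads were assigned. The tricarboxylic acid cycle list had a median of 0.32 (11 of 18 higher, 0 passed) and that of SR and hnRNP splicing factors 0.35 (18 of 26 higher, 0 passed). Leaving out 1 library moved the ribosomal protein median to 0.27 (without pcDNA4c mCsnk2a1 3), the splicing factor median to 0.62 (without pcDNA4c mCsnk2a1 1) and the tricarboxylic acid cycle median to 0.55 (without pcDNA4c mCsnk2a1 1 or 3) and 0.70 (without pcDNA4c Control 1). Malat1, a nuclear noncoding RNA, had 3623, 6646 and 6958 CPM against 13948, 13758 and 7988 (-1.05, SE 0.26, adjusted p = 0.296).

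No rod phototransduction gene passed with all libraries in the fit, and the library labelled pcDNA4c mCsnk2a1 1 was the lowest of its group in most of them. Of 20 phototransduction genes measured, 16 were higher, 5 did not overlap on the higher side (3.73% of all genes did) and 0 passed, with a median log2 difference of 0.46. Their sum was 6436, 13391 and 13643 CPM in the vector libraries against 7236, 8102 and 6381 in the controls. Without the library labelled pcDNA4c mCsnk2a1 1 the median was 0.76, without pcDNA4c mCsnk2a1 3 it was 0.23, and without pcDNA4c Control 3 it was 0.31.

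Gnb1, the transducin beta subunit, had 683, 1714 and 1670 CPM against 581, 604 and 589 (1.20, SE 0.36, edgeR adjusted p = 0.514), and it passed higher without the library labelled pcDNA4c mCsnk2a1 1 (1.57, adjusted p = 0.0268). Gnat1, the transducin alpha subunit, had 149, 154 and 137 against 43.8, 100 and 101 (0.84, SE 0.48), and Cnga1, the rod channel, 175, 395 and 367 against 170, 154 and 136 (1.03, SE 0.47). Sag, rod arrestin, overlapped, with 1023, 2364 and 2264 against 1458, 1870 and 1199 (0.32, SE 0.29), and Pde6a, a phosphodiesterase subunit, had 115, 65.2 and 109 against 118, 140 and 77.0 (-0.21).

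**Figure D4:**
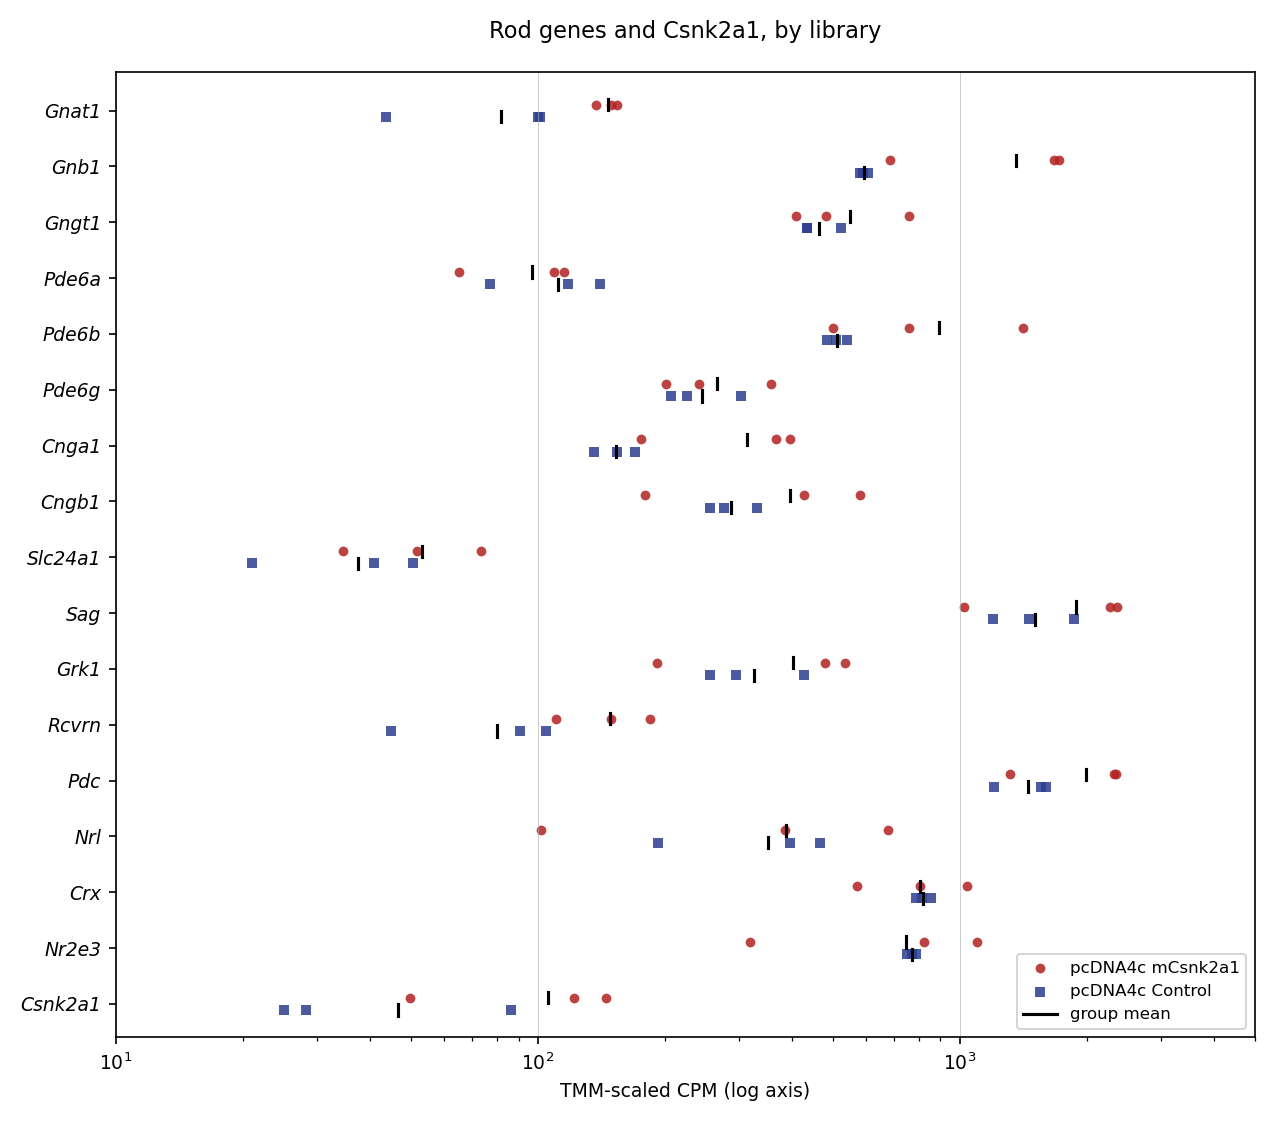
TMM-scaled CPM (log axis) of 13 rod phototransduction genes, Nrl, Crx, Nr2e3 and Csnk2a1 in the 3 Csnk2a1 vector libraries and the 3 pcDNA4c Control libraries (points; black lines are group means). Gnb1, Cnga1, Rcvrn and Gnat1 do not overlap between the groups, and the transcription factors and Csnk2a1 do.

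The factors that set rod identity had similar means in both groups but spread widely with the vector. Nrl had 101, 386 and 677 CPM against 467, 395 and 193 (0.14, SE 0.58). Nr2e3, which represses cone genes, had 318, 1096 and 823 against 771, 786 and 749 (-0.04, SE 0.41), and Crx 570, 805 and 1041 against 815, 856 and 787 (-0.02, SE 0.30). In the 3 genes the library labelled pcDNA4c mCsnk2a1 1 was the lowest of the 6, and the sign of the small differences turned under several alternatives. The photoreceptor transcription factor list had a median of -0.0039, with 8 of 17 higher, and that median ran from -0.04 to 0.34 with 1 library left out (0.34 without pcDNA4c mCsnk2a1 1). Its far member was Mef2c, a factor used in photoreceptors and in microglia, with 4.37, 0 and 0.671 CPM against 287, 83.5 and 137 (-6.67, SE 1.52, edgeR adjusted p = 0.204).

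Genes of the outer segment and cilium had a median of -0.14 (11 of 27 higher, 0 passed), or 0.10, 0.03 and -0.34 without pcDNA4c mCsnk2a1 1, 2 and 3 in turn, and 2 long cilium genes lay lower. Cep290, of the ciliary transition zone, had 222, 401 and 312 CPM against 883, 1033 and 736 (-1.50, SE 0.39, edgeR adjusted p = 0.296), and Rpgrip1, its neighbour in the connecting cilium, 323, 795 and 874 against 1429, 1029 and 1200 (-0.88, SE 0.48). Both had vector libraries all below the controls. In the whole list 2 genes did not overlap on the lower side and 3 on the higher side (11.8% and 3.73% of all genes did). Rp1, which binds axonemal microtubules, overlapped at 1410, 2369 and 3213 against 1624, 1738 and 1662 (0.48, SE 0.28). The photoreceptor synapse list had a median of 0.06 with 10 of 20 higher, which turned to -0.13 without pcDNA4c mCsnk2a1 2 and -0.03 without pcDNA4c Control 3. In it Snap25, of the vesicle fusion complex, had 437, 868 and 800 CPM against 340, 287 and 289 (1.20, SE 0.43).

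Cone genes lay lower without passing. Of 12 measured, 10 were lower and 3 did not overlap on that side (11.8% of all genes did), with a median of -1.42. Opn1sw, the short-wavelength cone opsin, was at 0 in the vector libraries and at 23.1, 42.0 and 2.77 CPM in the controls (at least 65.7-fold lower, edgeR adjusted p = 0.519), and it was at 0 in shRNA Control as well. Cngb3, a cone channel subunit, had 7.44, 2.51 and 0 against 22.1, 64.0 and 39.3 (-3.65, SE 1.47). Gngt2, the cone transducin gamma subunit, was on the other side with 39.4, 76.8 and 71.8 against 41.8, 26.5 and 16.6 (1.14). The cone list summed to 327 to 455 CPM with the vector, 445 to 566 in pcDNA4c Control and 359 to 431 in shRNA Control.

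Several cell cycle genes were at or near 0 in pcDNA4c mCsnk2a1 2 and 3. Of 14 progenitor and cell cycle genes 10 were lower (median -1.52, 0 passed), and the median was -5.58 without the library labelled pcDNA4c mCsnk2a1 1. Mki67, the proliferation marker, had 707, 0.627 and 0 CPM in the vector libraries and 132, 77.0 and 77.0 in the controls. The library labelled pcDNA4c mCsnk2a1 1 was thus the highest of the 6 and the other vector libraries were the lowest, and without it Mki67 passed as lower (edgeR adjusted p = 0.00865), as did the mitotic motor gene Cenpe (adjusted p = 0.00956). Cdk1, the mitotic kinase, had 0, 0 and 1.34 CPM against 26.6, 21.5 and 16.6, and Mcm3, of the replicative helicase, was at 0 against 22.1, 17.5 and 10.5. Of immediate early genes 14 of 21 were lower (median -0.53, 0 passed; -0.28 without the library labelled pcDNA4c mCsnk2a1 1, -0.89 without 3 and -0.19 without pcDNA4c Control 1), with Atf3 at 0 in the vector libraries and at 13.8, 97.5 and 8.86 CPM in the controls.

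Detection was lopsided between the groups. Of all genes in the table, 999 had a count in each of the 3 controls and none in the 3 vector libraries (638 of them protein-coding), while 16 had the reverse (6 protein-coding). With at least 10 counts in each library of the group that had the gene, the numbers were 147 and 2, the pair being Tpbgl and Tceal6. After thinning the libraries to 1692825 counts they were 1086 and 14, and 144 and 2. Against the same controls, 462 genes had no count in shRNA Control, 57 of them with at least 10 counts in each control. Beside the macrophage genes above, the 147 included Csf1, the growth factor of macrophages (154, 23.0 and 60.9 CPM in the controls), Lgals3, galectin-3 (33.5, 10.0 and 17.2), and genes of other kinds such as Iscu, of iron-sulfur cluster assembly (28.0, 25.5 and 12.2). These 3 were chosen after their values were seen and did not pass. A count of 0 allows up to 3 counts over the group, and PCR copies are not independent molecules, so these bounds cover counting error only. Long noncoding and unconfirmed genes took 7.18% of counts with the vector and 9.40% in the controls (exact permutation p = 0.1), and nuclear protein-coding genes 68.3% and 67.8% (p = 0.4, n = 3 per group).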

How the data were processed

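Rod RNA was sequenced in 12 libraries, 6 of them compared here, 3 per group. Per the submitters' processing notes the authors used kallisto 0.45.0, edgeR 3.28 and mm10. They do not give the annotation release or strand setting. Estimated counts, not normalised, came from the authors' gene table (52962 genes), and TPM from their transcript table, which is titled as counts but has equal column totals. Another deposited table, of scaled signal in CPM units for 11 libraries (largest relative departure from 1 constant per library 8.22e-13), was used for names and positions, of which 98.2% were found in GENCODE M21. Numbers after rounding to whole counts were analysed with R 4.3.3 and edgeR 4.0.16: filterByExpr with a minimum count of 10 (20267 genes), TMM scaling, and 1 quasi-likelihood fit of 4 groups over 12 libraries. The SE is the log2 difference divided by the square root of F. Bounds use a floor of 3 counts over a group. For single values exact permutation tests (two-sided) were used. In a test on simulated data (17840 genes), 30% of changed genes of log2 size 3 and 80% of size 5 were recovered, with 4 false calls. The changed genes were drawn from the more abundant ones, and each simulated group had the same spread. These shares thus do not describe genes near 0 or the unequal spread of the real groups. Alternatives used DESeq2 1.42.0 and limma 3.58.1. Named genes passed without overlap and were not predicted genes or pseudogenes (up to 15 each way), or had the 6 next smallest p each way, or the 4 smallest p of a list, or belong to a fixed set of CK2, rod and cone genes; other genes were chosen as list members to show the range. The members and the 33 lists were chosen with earlier results of these data known. Some genes are counted in lists but not reported by name here.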

Additional observations from a re-analysis of the deposited data

How the results depend on the processing

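The counts of calls and the fitted differences were recomputed under up to 16 alternatives, fewer for a gene that an alternative left out. Detection counts were recomputed only after thinning, and TPM values and permutation tests were not. The number of genes higher (13) became 4 with mitochondrial and 7SL genes left out, 51 with no filter, 0 with only the 6 libraries and 53 with DESeq2, and 6 to 20 with 1 library left out. The number lower (7) became 60 with no filter, 187 with DESeq2, 28 with limma voom, 14 with the replicate number as a block (12 higher), and 8 to 15 with 1 library left out. Fits without a library tested 23294 to 23823 genes, as the filter then asks for fewer libraries. Deviations of libraries with the same number correlated at -0.016, 0.0087 and -0.040, and those with different numbers at -0.036 to 0.053. With 3 widely spread libraries per group, these values cannot decide whether the numbers pair the samples. The median over all genes (-0.16) was -0.30 with library size alone, -0.44 with the block and -0.79 with limma voom. Signs turned for genes that did not pass: Nr2e3 became 0.0184 with DESeq2, 0.0183 with its size factors and 0.0067 with only the 6 libraries, and Crx 0.0427, 0.0425 and 0.0225. Nrl became -0.0284 with library size alone and -0.0333 with limma voom, where Csnk2a2 became -1.36 and Tyrp1 -0.65. With the block, Nrl became -0.21, Tyrp1 -0.64 and Arr3 0.72. With 1 library left out, the ranges that crossed 0 were -7.35 to 1.65 for Arr3, -1.82 to 1.48 for Csnk2a2, -0.14 to 0.82 for Csnk2b, -0.48 to 0.64 for Nrl, -0.22 to 0.22 for Crx, -0.40 to 0.37 for Nr2e3, -2.24 to 0.24 for Rgr, -0.32 to 6.81 for Best1, -0.53 to 2.75 for Nr1h2, -6.33 to 3.62 for Tyrp1 and -1.0043 to 3.23 for Tfap2b. The cause was not tested for any of these. Depth limits genes near 0, where 3 counts cannot be told from none.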
